A study of Mus musculus with 15 samples.

Results

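The genes described here are those of the mouse major histocompatibility complex (MHC) and of antigen presentation, measured in cerebral cortex. They were chosen by name: every array feature with 1 gene symbol that starts with H2-, or that is one of Tap1, Tap2, Tapbp, Tapbpl, B2m, Psmb8, Psmb9, Psmb10, Cd74, Ciita, Nlrc5, Erap1, Calr, Canx and Pdia3. This gave 127 features of 52 genes out of 45220 features on the array, and 111 of them, from 41 genes, had values out of 34479 features and 16401 genes with values. The other 16 features had no value on any array, and they were all that the array held for 11 genes, namely H2-Ea, H2-Eb2, H2-Ob, H2-M1, H2-M9, H2-M11 and H2-M10.1, H2-M10.3, H2-M10.4, H2-M10.5 and H2-M10.6. The rule used names and no measured value, but earlier results of these data were known when it was chosen.

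Total RNA from whole cortex of adult female mice was labelled with Cy3 and hybridised to 15 one-colour Agilent arrays, 5 in each of 3 groups. Sedentary SAMR1 mice carried replicates 1 to 5, sedentary SAMP8 mice replicates 6 to 10 and exercised SAMP8 mice replicates 11 to 15. SAMP8 is an inbred strain selected for accelerated senescence and SAMR1 is its senescence-resistant counterpart, so the strain comparison addressed what differs in the senescence-prone cortex and the exercise comparison what activity changes in it. No exercised SAMR1 mice were among the samples, the kind and length of exercise were not given in the sources used here, and the labels leave unsaid if the RNA of an array came from 1 mouse or several. All values are log2 of the deposited spot intensity. Differences are on the same log2 scale and are followed by limma's standard error.

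MHC class I molecules are a heavy chain held by beta-2 microglobulin (B2m) around a short peptide. The peptide is cut from cytosolic protein by the proteasome, carried into the endoplasmic reticulum by the Tap1-Tap2 transporter and loaded with the help of tapasin (Tapbp), calreticulin (Calr) and Pdia3. Class II molecules pair an alpha and a beta chain around the invariant chain Cd74, whose remnant H2-DM then exchanges for peptides from endosomes. Nlrc5 and Ciita are the transactivators of class I and class II genes, and interferon gamma raises both. In brain, microglia and the macrophages of meninges and vessels are the usual class II carriers, whereas class I is also made by neurons, where it has been linked to synapse remodelling.

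Array medians lay between 207.8 and 208.8 intensity units and lower quartiles between 71.68 and 72.75, pairwise array correlations lay between 0.968 and 0.988, and 0 pairs were identical. The median standard deviation within a group was 0.217 for the members and 0.211 for all features. Of the members, 7 features (6.31%) lay under the lower quartile on all 15 arrays, against 8.12% of all features. These dim features were H2-Ab1 features 20353 and 42170, H2-Aa 10139, H2-Oa 18714, H2-T24 41844, H2-T3 31315 and Ciita 34445. The mean of the cortical neuron markers ranged from 10.08 to 10.40 over the arrays, far above that quartile.

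Several members were printed on the array more than once for the same transcript record: B2m 11 times, H2-Ab1 12 times and H2-K1, H2-M2 and H2-Q7 10 times each. After group means were removed, such features tracked each other across arrays with median correlations of 0.878 for B2m, 0.91 for H2-K1, 0.881 for H2-M2 and 0.755 for H2-Q7, but 0.257 for the dim H2-Ab1. They may be 1 probe spotted repeatedly, so they are not independent measurements, and the mean over a record is given beside its features for the members described. Many class I genes are near-identical copies of each other. Probe sequences were not used here, so which copies a feature reads was not tested.

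In the strain comparison, 19 of the 111 member features passed an adjusted p of 0.05 (limma, Benjamini-Hochberg over all 34479 features), 5 higher and 14 lower in sedentary SAMP8. They came from 8 genes and made up 17.1% of the members, against 2.61% of all features. Among all features 1.49% were higher and 1.12% lower. The 5 arrays of one strain did not overlap the 5 of the other in 22 member features (19.8%), against 4.41% of all features. The median member difference was -0.05, beside 0.01 for all features, and the median absolute difference was 0.21, beside 0.13. With features of a record averaged, 9 of 47 member records passed, 4 higher and 5 lower, against 2.56% of 26691 records in all. The count of features rested on the repeats of H2-K1: it was 7 without SAMR1 replicate 3, SAMP8 replicate 6 or SAMP8 replicate 9, 10 without SAMP8 replicate 7, and 11 and 12 without SAMR1 replicates 2 and 1. With 1 feature a gene it was 6, and with the mean of a gene's features 5.

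**Figure D1:**
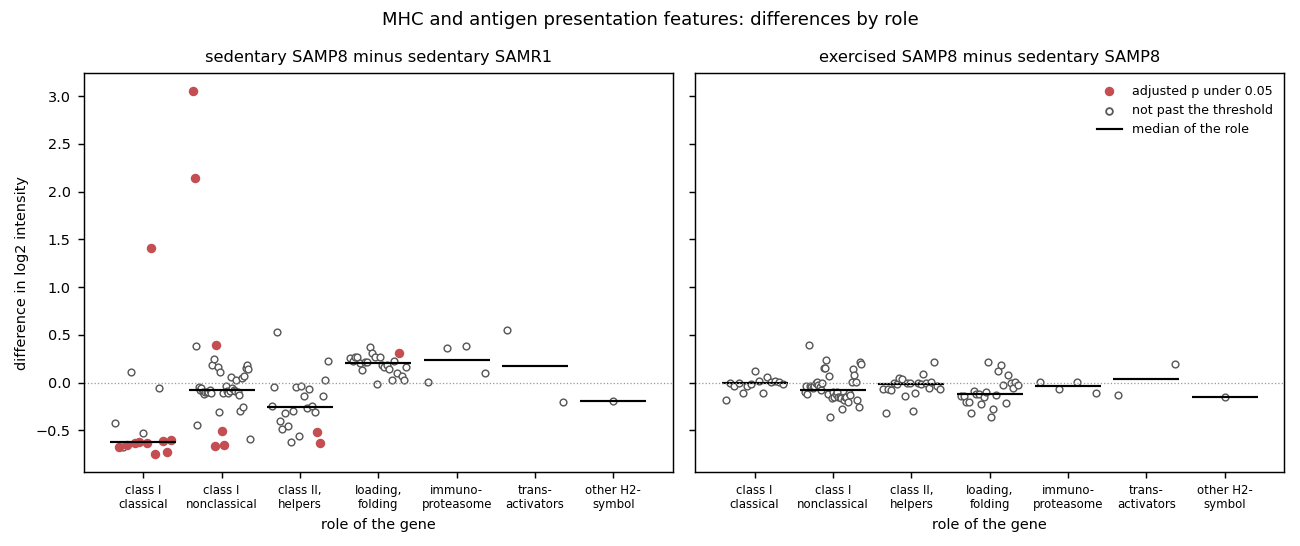
Difference in log2 intensity (vertical axis) of each of the 111 member features, by the role of the gene (horizontal axis), for sedentary SAMP8 minus sedentary SAMR1 on the left and exercised minus sedentary SAMP8 on the right; filled points passed an adjusted p of 0.05 and lines are medians. The classical class I features lie mostly near -0.6 in the strain comparison, 2 points of H2-Bl and 1 of H2-K1 lie far above 0, and no point is filled in the exercise comparison.

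The classical class I heavy chains present peptides to CD8 T cells. H2-K1 was lower in SAMP8 on 1 of its 3 transcript records and higher on another, and H2-D1 missed the threshold. Of 15 features, 9 were lower and 1 higher, with a median difference of -0.62, but all 9 are repeats of 1 H2-K1 record that makes up 10 of the 15. The 4 sequences that follow are the 250 bases upstream of the annotated start of H2-K1 and H2-D1 and of the nonclassical H2-Q4 and H2-Q10, printed because each had a feature that passed as lower in sedentary or exercised SAMP8 than in SAMR1. They are RefSeq promoters on GRCm38.p6 chromosome 17, at chr17:34000348-34000597 on the minus strand, chr17:35262844-35263093 on the plus strand, chr17:35379367-35379616 on the plus strand and chr17:35469839-35470088 on the plus strand. Capitals mark, on either strand, GGGNNTTCC (a kB-type element), GAANNGAAA (an interferon response core), CCAAT (the Y box) and TGACG (the core of the X2 box), and in these windows no base belongs to more than 1 match.
H2-K1: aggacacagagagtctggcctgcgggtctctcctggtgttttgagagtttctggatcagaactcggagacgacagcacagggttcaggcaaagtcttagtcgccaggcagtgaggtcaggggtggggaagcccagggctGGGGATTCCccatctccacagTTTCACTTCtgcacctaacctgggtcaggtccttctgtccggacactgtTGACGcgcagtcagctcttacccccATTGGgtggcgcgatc
H2-D1: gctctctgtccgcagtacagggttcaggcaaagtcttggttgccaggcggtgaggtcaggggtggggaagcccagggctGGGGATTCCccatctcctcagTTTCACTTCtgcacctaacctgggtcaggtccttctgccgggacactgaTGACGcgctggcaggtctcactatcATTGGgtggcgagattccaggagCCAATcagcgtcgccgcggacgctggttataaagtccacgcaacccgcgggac
H2-Q4: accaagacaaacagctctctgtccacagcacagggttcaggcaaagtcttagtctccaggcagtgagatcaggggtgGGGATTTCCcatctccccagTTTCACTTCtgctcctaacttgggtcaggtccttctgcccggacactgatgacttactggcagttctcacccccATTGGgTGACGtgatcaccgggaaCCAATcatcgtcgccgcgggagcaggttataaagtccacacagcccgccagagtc
H2-Q10: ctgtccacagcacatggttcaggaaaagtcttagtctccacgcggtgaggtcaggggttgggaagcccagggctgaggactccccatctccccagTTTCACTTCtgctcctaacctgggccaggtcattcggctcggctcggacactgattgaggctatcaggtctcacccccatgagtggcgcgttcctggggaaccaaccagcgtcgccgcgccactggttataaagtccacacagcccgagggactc
The kB-type element stood in 7 of the 29 member genes whose promoter was in the table, H2-Aa, H2-D1, H2-K1, H2-M2, H2-Oa, H2-Q4 and H2-Q7, against 4.98% of 32851 promoters in all. The interferon core stood in 7 of 29, all of them class I genes, against 6.31%. The Y box stood in 23 of 29 against 33.8%, and the X2 core in 13 of 29 against 17.8%. H2-Q10 held the interferon core only. H2-M2 and H2-Q7, which did not pass in any comparison, held both the kB-type element and the interferon core. The H2-D1, H2-Q4 and H2-Q10 windows were 72.1% to 80.4% identical to each other, and H2-K1 was 52.1% to 56.1% identical to them. Promoters of such related genes are not independent counts. These are letter matches in the reference assembly, the SAMR1 and SAMP8 sequences were not read, and no binding was measured.

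H2-K1 encodes the K heavy chain, and 10 of its 14 features share 1 transcript record. Their mean measured 11.20, 11.48, 11.44, 11.06 and 11.04 in sedentary SAMR1, 10.45, 10.49, 10.81, 10.48 and 10.69 in sedentary SAMP8 and 10.43, 11.08, 10.63, 10.52 and 10.28 in exercised SAMP8. Every SAMR1 array lay above every sedentary SAMP8 array, while exercised replicate 12 reached the lower SAMR1 arrays. The mean was -0.66 ± 0.14 in sedentary SAMP8 relative to SAMR1, a level 1.58 times lower (adjusted p = 0.021, limma over records). Single features of the record ran from -0.75 to -0.60, and 9 of the 10 passed, the exception being feature 4593 at adjusted p = 0.058. The call on single features was fragile: each of the 9 was lost in at least 1 of 24 alternatives, and feature 31956 was lost in 1 only, the mean over all H2-K1 features.

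Another H2-K1 feature went the other way. Feature 19521, on a second record, measured 8.22, 8.41, 8.70, 8.02 and 8.55 in sedentary SAMR1, 9.68, 9.45, 10.10, 9.59 and 10.09 in sedentary SAMP8 and 9.36, 10.12, 9.85, 9.65 and 9.43 in exercised SAMP8. All SAMP8 arrays lay above all SAMR1 arrays, with sedentary replicates 8 and 10 and exercised replicate 12 the highest. It was 1.41 ± 0.18 higher in sedentary SAMP8, a ratio of 2.65 (adjusted p = 2.1e-04). Its partner on the same record, feature 8536, differed by 0.11 ± 0.14 (adjusted p = 0.79). The mean of that record was higher by 0.76 ± 0.15 and passed (adjusted p = 0.012, limma over records), with no overlap of the strains. On the third record, feature 15337 differed by -0.53 ± 0.17 (adjusted p = 0.15) and feature 26612, the brightest of the gene, by -0.05 ± 0.11 (adjusted p = 0.88), with a record mean of -0.29 ± 0.12 (adjusted p = 0.29). H2-K1 therefore has no single direction on this array. With all 14 features averaged, 10 of them from the first record, the difference was -0.40 (adjusted p = 0.14). The part that strain differences in the sequence under each probe play in this was not tested.

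**Figure D2:**
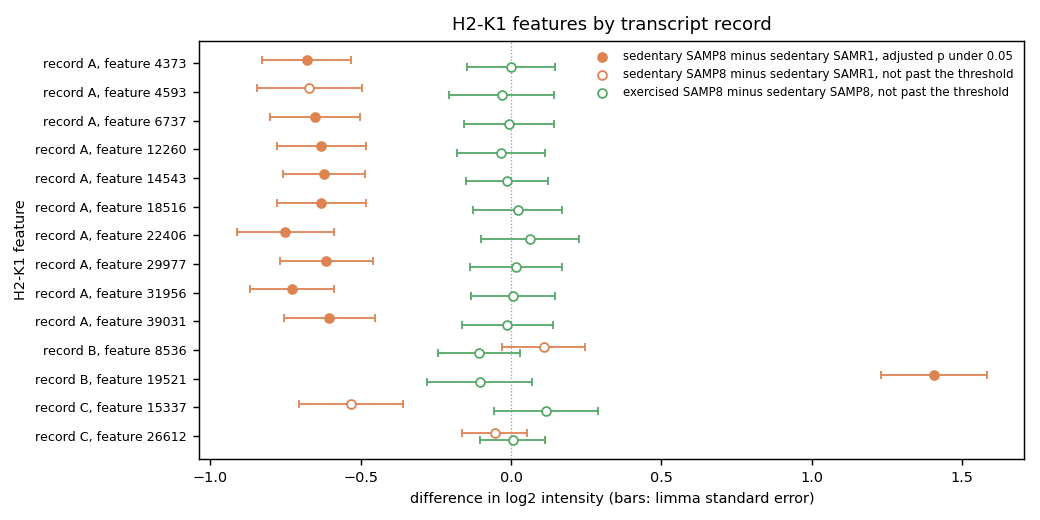
Difference in log2 intensity (horizontal axis, bars are limma's standard error) of the 14 H2-K1 features (vertical axis), grouped by transcript record, for the strain and the exercise comparison. The 10 features of record A lie between -0.75 and -0.60 in the strain comparison and near 0 in the exercise comparison, feature 19521 of record B lies at 1.41 and feature 26612 of record C at -0.05.

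H2-D1 encodes the D heavy chain and had 1 feature. It measured 10.97, 11.37, 11.26, 11.01 and 11.21 in sedentary SAMR1, 10.66, 10.65, 10.84, 10.63 and 10.92 in sedentary SAMP8 and 10.36, 10.93, 10.69, 10.54 and 10.27 in exercised SAMP8. Every SAMR1 array lay above every SAMP8 array of both groups. The strain difference was -0.43 ± 0.12 and missed the threshold (adjusted p = 0.099). Exercised SAMP8 minus SAMR1 was -0.61 ± 0.12 and passed (adjusted p = 0.012), as it did in all 25 alternatives. The distance between those values is the exercise difference, -0.18 ± 0.12 (adjusted p = 0.8), which did not pass.

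The nonclassical class I genes, whose products have narrower peptide repertoires or other roles, moved in both directions. Of 43 features from 16 genes, 3 were higher and 3 lower, and the median difference was -0.08. H2-Bl, which RefSeq lists as a transcribed pseudogene, had the largest differences of all members. Its feature 18113 measured 5.82, 4.30, 5.44, 4.87 and 5.38 in sedentary SAMR1, 8.27, 8.26, 8.51, 8.10 and 7.93 in sedentary SAMP8 and 8.15, 8.24, 7.96, 7.97 and 8.27 in exercised SAMP8. All SAMR1 arrays were under the array's lower quartile and all SAMP8 arrays above it. The difference was 3.05 ± 0.22, a ratio of 8.29 in the fit (adjusted p = 6.4e-07). Feature 31637 of the same record showed 2.14 ± 0.15 (adjusted p = 4.7e-07), again with all SAMR1 arrays under the quartile, from 4.83 to 5.49. At such low values the SAMR1 level is poorly fixed, and with 16 units added to each intensity the first difference was 2.57. The third H2-Bl feature, 32368, differed by 0.38 ± 0.12 (adjusted p = 0.14), and its groups overlapped. The mean of the 3 features differed by 1.86. Features 18113 and 31637 passed in every alternative that held them.

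H2-Q4, a class I gene of the Q region, measured 10.65, 10.82, 10.89, 10.52 and 10.41 in sedentary SAMR1, 10.02, 9.84, 10.07, 9.99 and 10.10 in sedentary SAMP8 and 9.66, 10.35, 9.93, 9.85 and 9.65 in exercised SAMP8. SAMR1 arrays all lay above both SAMP8 groups, and exercised replicate 12 came closest. The strain difference was -0.65 ± 0.13 (adjusted p = 0.012), a level 1.57 times lower, and it passed in all 25 alternatives. H2-Q10, a secreted class I molecule best known from liver, had 4 features on 1 record. Feature 35376 measured 8.09, 8.31, 8.52, 8.12 and 8.20 in sedentary SAMR1, 7.77, 7.74, 7.80, 7.52 and 7.89 in sedentary SAMP8 and 7.53, 7.97, 7.71, 7.53 and 7.50 in exercised SAMP8. No SAMP8 array reached the lowest SAMR1 array. Its difference was -0.50 ± 0.11 (adjusted p = 0.024), but features 35086, 5265 and 23713 differed by 0.11 ± 0.13, 0.16 ± 0.23 and -0.31 ± 0.21 and did not pass. The record mean differed by -0.14 (adjusted p = 0.57). The call of feature 35376 was also lost without SAMR1 replicate 3 or SAMP8 replicate 6, 7 or 9.

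H2-Q1 had 2 features, each on its own record, and both passed in opposite directions. Feature 39981 measured 8.78, 8.91, 9.00, 8.71 and 9.14 in sedentary SAMR1, 9.29, 9.15, 9.44, 9.24 and 9.35 in sedentary SAMP8 and 9.04, 9.28, 9.26, 9.11 and 9.17 in exercised SAMP8. It was higher in every sedentary SAMP8 array than in any SAMR1 array, by 0.39 ± 0.09 (adjusted p = 0.037). Feature 5567 measured 7.24, 6.58, 6.74, 6.77 and 6.47 in sedentary SAMR1, 6.16, 6.45, 6.08, 6.11 and 5.71 in sedentary SAMP8 and 5.99, 6.44, 6.39, 6.30 and 6.59 in exercised SAMP8. It was lower in every sedentary SAMP8 array than in any SAMR1 array, with a difference of -0.66 ± 0.16 (adjusted p = 0.039), and exercised SAMP8 overlapped SAMR1. These calls were unstable, lost in 10 of 25 and 12 of 24 alternatives, and their mean differed by -0.14 (adjusted p = 0.50). Of the remaining nonclassical features, none passed: the H2-M2 record mean differed by -0.09 ± 0.12, the H2-Q7 record mean by -0.07 ± 0.10, H2-T23 by 0.15 ± 0.12, the H2-M3 record mean by 0.21 ± 0.10, H2-Q2 by -0.11 ± 0.11 and H2-Q5 by -0.04 ± 0.16. Differences of larger size that did not pass included -0.59 ± 0.41 for H2-T3 and -0.45 ± 0.32 for H2-M10.2, both dim. H2-Q8 differed by -0.30 ± 0.19 and H2-T22 feature 18646 by -0.26 ± 0.10, while the other H2-T22 feature differed by 0.07 ± 0.09. H2-T23 encodes Qa-1, a ligand of natural killer cell receptors, and H2-M3 presents formylated peptides.

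**Figure D3:**
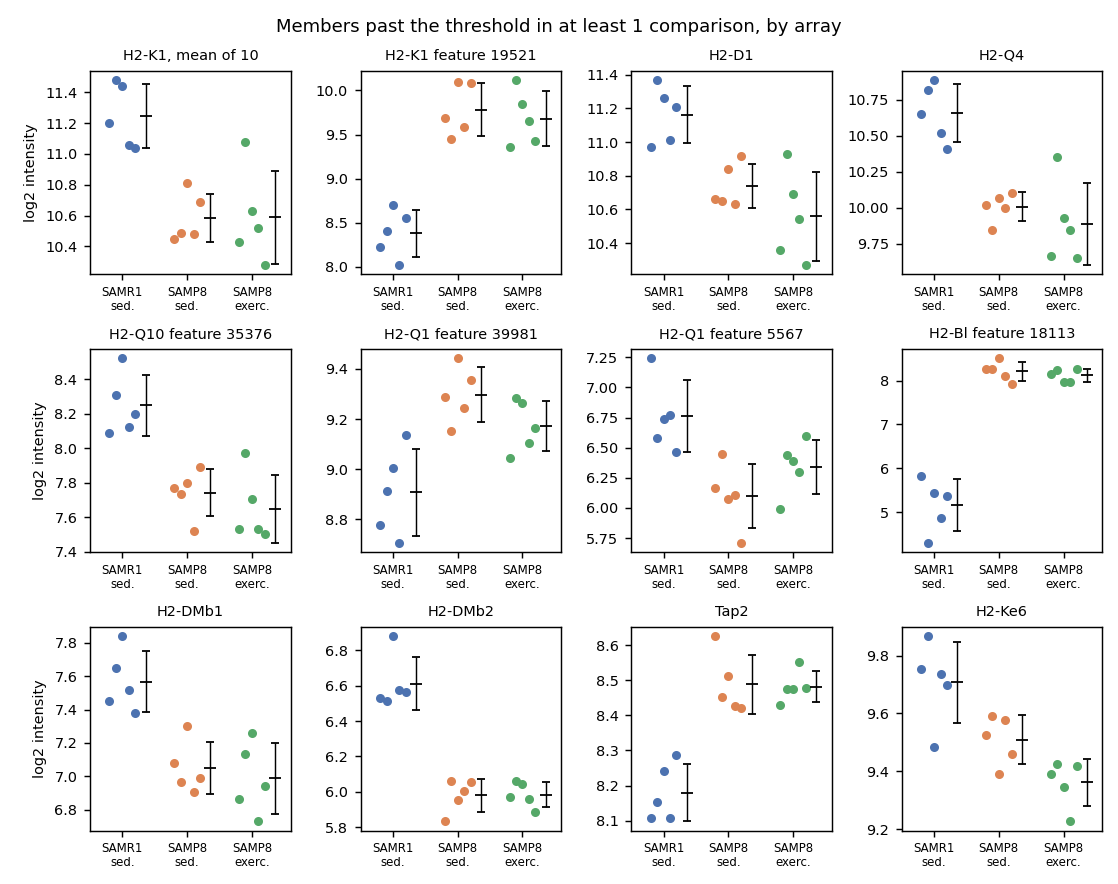
Log2 intensity (vertical axes, each panel with its own range) on the 5 arrays of each group (horizontal axis, points) for members that passed an adjusted p of 0.05 in at least 1 comparison, with the group mean and standard deviation as black bars. The H2-K1 panel is the mean of 10 features of 1 record. SAMP8 arrays lie below SAMR1 for H2-Q4, H2-D1, H2-DMb1 and H2-DMb2 and above it for Tap2, H2-Bl and H2-K1 feature 19521, while the SAMP8 groups overlap each other in every panel.

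Class II genes and their helpers had 22 features from 8 genes. None was higher and 2 were lower in sedentary SAMP8, H2-DMb1 and H2-DMb2, and 19 of 22 differences were negative (86.4%, against 48.6% of all features), with a median of -0.26. Of those 22 features, 12 are repeats of H2-Ab1. H2-DMb1 and H2-DMb2 are neighbouring copies that encode the beta chain of H2-DM, the peptide exchange factor of class II. Their upstream windows, shown because both genes fell together, are at chr17:34152941-34153190 and chr17:34144999-34145248, both on the plus strand of GRCm38.p6, and held the Y box as the 1 searched motif. These too are windows of the reference assembly, not sequences read from SAMR1 or SAMP8.
H2-DMb1: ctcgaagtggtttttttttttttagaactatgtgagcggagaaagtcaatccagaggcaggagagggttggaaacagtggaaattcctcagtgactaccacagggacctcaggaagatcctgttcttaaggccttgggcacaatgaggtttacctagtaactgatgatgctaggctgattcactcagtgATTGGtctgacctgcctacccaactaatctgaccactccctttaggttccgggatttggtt
H2-DMb2: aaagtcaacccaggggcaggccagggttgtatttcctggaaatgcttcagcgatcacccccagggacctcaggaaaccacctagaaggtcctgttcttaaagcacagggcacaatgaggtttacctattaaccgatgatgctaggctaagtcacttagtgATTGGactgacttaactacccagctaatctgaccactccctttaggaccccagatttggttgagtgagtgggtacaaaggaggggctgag
H2-DMb2 measured 6.53, 6.51, 6.88, 6.57 and 6.56 in sedentary SAMR1, 5.83, 6.06, 5.95, 6.00 and 6.06 in sedentary SAMP8 and 5.97, 6.06, 6.05, 5.96 and 5.89 in exercised SAMP8. All SAMR1 arrays were above the lower quartile of the array and all 10 SAMP8 arrays were below it. It fell by 0.63 on the log2 scale with a standard error of 0.08 (adjusted p = 3.6e-04), and the call held in all 24 alternatives that held the feature. H2-DMb1 measured 7.45, 7.65, 7.84, 7.52 and 7.38 in sedentary SAMR1, 7.08, 6.96, 7.30, 6.91 and 6.99 in sedentary SAMP8 and 6.86, 7.14, 7.26, 6.73 and 6.94 in exercised SAMP8. Here too the strains did not overlap. The difference was -0.52 ± 0.12 (adjusted p = 0.028), and it was lost in 7 of 25 alternatives, without SAMR1 replicate 2, 3 or 4 or SAMP8 replicate 6, 7, 9 or 10 (adjusted p up to 0.077). H2-DMa, the partner alpha chain, differed by -0.30 ± 0.12 (adjusted p = 0.26). The copies are similar in sequence, so signal of one on the other's feature cannot be told apart here.

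The class II chains themselves did not pass. Cd74, the invariant chain, measured 7.68, 7.29, 7.52, 7.60 and 6.60 in sedentary SAMR1, 7.27, 7.24, 7.25, 6.98 and 6.71 in sedentary SAMP8 and 6.98, 7.12, 7.04, 6.95 and 7.01 in exercised SAMP8. SAMR1 spanned the range of all other arrays, since its replicate 5 was the lowest of the 15, and the strain difference was -0.25 ± 0.17 (adjusted p = 0.58). The mean of the 12 H2-Ab1 features measured 5.83, 5.96, 6.40, 5.86 and 6.08 in sedentary SAMR1, 5.79, 5.92, 5.59, 5.62 and 5.69 in sedentary SAMP8 and 5.60, 5.59, 5.82, 5.58 and 5.81 in exercised SAMP8. Sedentary SAMP8 overlapped SAMR1, every exercised array lay narrowly below the lowest SAMR1 array, and SAMR1 replicate 3 was the highest array. The strain difference was -0.30 ± 0.11 (adjusted p = 0.22) and exercised SAMP8 minus SAMR1 was -0.34 ± 0.11 (adjusted p = 0.12). Single H2-Ab1 features ran from -0.62 to -0.04, most of them under the lower quartile in SAMP8.

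H2-Aa, the alpha chain of the A molecule, had 2 dim features of opposite sign. Feature 30127 measured 5.83, 5.35, 6.16, 5.63 and 5.03 in sedentary SAMR1, 6.51, 6.41, 6.22, 6.00 and 5.51 in sedentary SAMP8 and 6.26, 6.13, 6.05, 6.10 and 5.78 in exercised SAMP8, with overlapping groups. It differed by 0.53 ± 0.21 (adjusted p = 0.26), and feature 10139 by -0.05 ± 0.26 (adjusted p = 0.96), with a record mean of 0.24 ± 0.17 (adjusted p = 0.58). H2-Eb1, the beta chain of the E molecule, measured 6.13, 6.81, 6.53, 6.34 and 6.49 in sedentary SAMR1, 6.23, 6.54, 6.39, 6.22 and 6.24 in sedentary SAMP8 and 6.51, 6.45, 6.13, 6.72 and 6.87 in exercised SAMP8. The groups overlapped fully, with a difference of -0.14 ± 0.14 (adjusted p = 0.73). H2-Oa, the alpha chain of the H2-DM inhibitor H2-O, differed by 0.03 ± 0.13 and 0.23 ± 0.23 on its features, with a record mean of 0.13 ± 0.16.

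In whole tissue, fewer cells of a type and less RNA per cell cannot be told apart. Of 12 microglial features from 8 genes, 0 passed in the strain comparison, the median difference was -0.0031, and the mean of the list ranged from 8.23 to 8.52 in SAMR1 and from 8.25 to 8.62 in sedentary SAMP8. Of 9 border macrophage features, 3 were higher, from Cd163, Ms4a7 and F13a1 (median 0.46), and the list mean ran from 6.14 to 6.38 in SAMR1 against 6.64 to 6.84 in sedentary SAMP8. Of 24 meningeal features, 4 were higher, from Col1a1 and Lum, with a median of 0.59. Of 8 dendritic cell, 6 B cell and 7 T cell features, 0 passed, and their list means in the sedentary groups stayed between 5.56 and 6.90, close to the lower quartile of the array. Of 21 endothelial, 18 choroid plexus and 11 striatal features, 0 passed. Astrocyte features had 8 of 30 higher, all of them of the 1 gene Gfap, and oligodendrocyte features 1 of 20 lower, Mbp. The share of all features that passed in this comparison was 2.61%. No marker was listed at 0. The part of these cells in the class II values was not tested.

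Peptide loading and folding genes mostly had positive differences. Of 24 features from 9 genes, 23 were above 0 in sedentary SAMP8 minus SAMR1 (4.17% negative against 48.6% of all features), with a median of 0.21, but only 1 passed. Of the 24, 11 are repeats of B2m. The feature that passed was Tap2, a subunit of the peptide transporter, which measured 8.11, 8.15, 8.24, 8.11 and 8.29 in sedentary SAMR1, 8.62, 8.45, 8.51, 8.43 and 8.42 in sedentary SAMP8 and 8.43, 8.47, 8.47, 8.55 and 8.48 in exercised SAMP8. Every SAMP8 array lay above every SAMR1 array, and the spread within each group was small. The rise was 0.31 ± 0.07 (adjusted p = 0.025), a ratio of 1.24, and it was lost in 5 of 25 alternatives, with only these groups fitted and without SAMR1 replicate 1 or 4 or SAMP8 replicate 6 or 8 (adjusted p up to 0.089). Tap1, its partner, measured 5.85, 5.47, 6.25, 6.24 and 6.14 in sedentary SAMR1, 6.14, 6.16, 6.13, 6.17 and 5.83 in sedentary SAMP8 and 6.75, 6.28, 5.83, 5.84 and 6.10 in exercised SAMP8. The groups overlapped at low values, with a difference of 0.10 ± 0.18 (adjusted p = 0.87).

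B2m, the light chain shared by class I molecules, measured 10.19, 10.35, 10.24, 10.33 and 10.05 in sedentary SAMR1, 10.63, 10.70, 10.33, 10.56 and 10.19 in sedentary SAMP8 and 10.21, 10.77, 10.13, 10.30 and 10.17 in exercised SAMP8 as the mean of 11 features. Sedentary SAMP8 replicates 8 and 10 fell within the SAMR1 range. The difference was 0.25 ± 0.13 (adjusted p = 0.41), and single features ran from 0.14 to 0.37. The remaining B2m feature, on another record, was dim and differed by -0.02 ± 0.22. The folding factors did not pass either: the mean of the 2 Calr features differed by 0.22 ± 0.12, Pdia3 by 0.23 ± 0.15, the mean of the 3 Canx features by 0.16 ± 0.10, Tapbpl, a tapasin relative, by 0.16 ± 0.12, Tapbp by 0.07 ± 0.11 and 0.02 ± 0.08, and Erap1, which trims peptides in the endoplasmic reticulum, by 0.02 ± 0.15.

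The immunoproteasome subunits replace the constitutive catalytic subunits after interferon signalling. Psmb8 feature 38519 measured 8.12, 8.30, 8.34, 7.98 and 8.09 in sedentary SAMR1, 8.68, 8.44, 8.63, 8.43 and 8.55 in sedentary SAMP8 and 8.58, 8.79, 8.64, 8.37 and 8.39 in exercised SAMP8. No SAMR1 array reached a SAMP8 array of either group. The difference of 0.38 ± 0.10 missed the threshold (adjusted p = 0.067), as did that of feature 8123, 0.36 ± 0.12 (adjusted p = 0.18), and that of their mean, 0.37 ± 0.11 (adjusted p = 0.096). Psmb9 measured 8.25, 8.32, 8.70, 8.30 and 8.40 in sedentary SAMR1, 8.51, 8.26, 8.78, 8.28 and 8.66 in sedentary SAMP8 and 8.16, 8.66, 8.53, 8.18 and 8.39 in exercised SAMP8. Its groups overlapped, with a difference of 0.10 ± 0.13 (adjusted p = 0.79), and Psmb10 differed by 0.01 ± 0.10 (adjusted p = 0.99).

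The transactivators were at the floor of the array. Ciita measured 5.07, 5.31, 5.50, 4.00 and 3.84 in sedentary SAMR1, 5.34, 5.70, 5.08, 4.85 and 5.48 in sedentary SAMP8 and 5.86, 3.91, 4.84, 5.48 and 5.71 in exercised SAMP8, under the lower quartile on every array and widely spread. Its difference was 0.55 ± 0.39 (adjusted p = 0.58). Nlrc5 measured 5.80, 5.63, 6.05, 6.00 and 6.11 in sedentary SAMR1, 5.93, 5.47, 5.91, 5.17 and 6.08 in sedentary SAMP8 and 5.34, 6.35, 5.56, 6.34 and 5.96 in exercised SAMP8. It was under the quartile on all but 2 exercised arrays, and its groups overlapped, with a difference of -0.21 ± 0.21 (adjusted p = 0.72). Neither passed in any comparison.

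**Figure D4:**
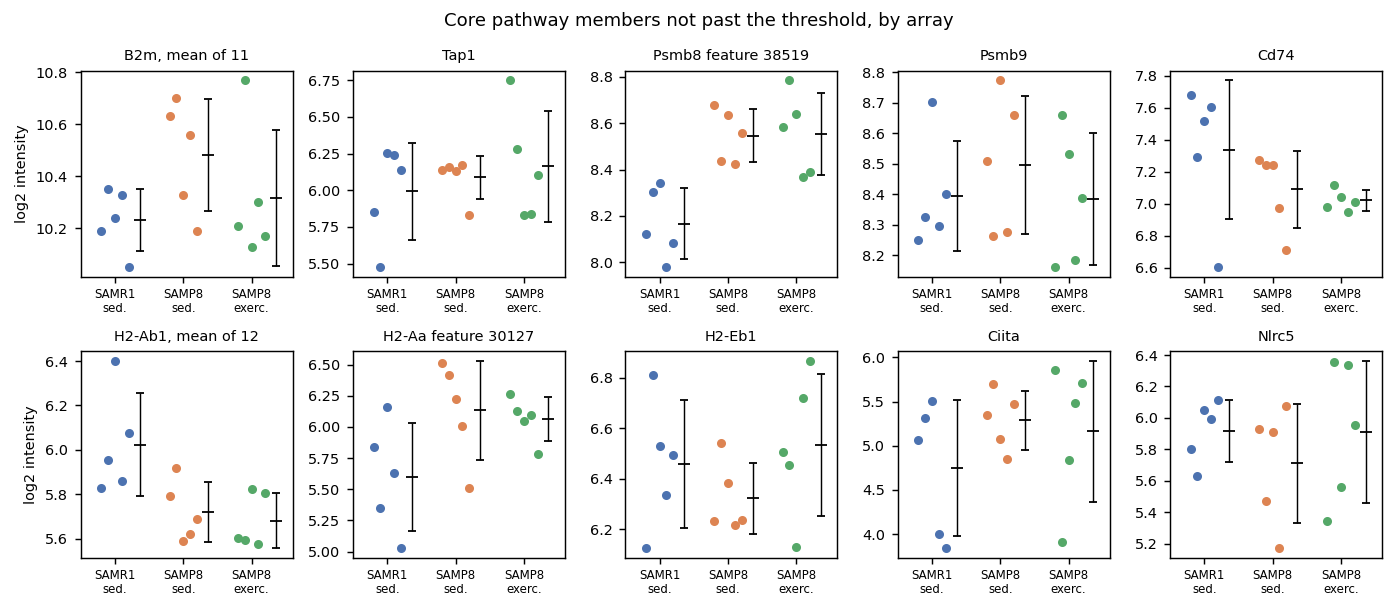
Log2 intensity (vertical axes, each panel with its own range) on the 5 arrays of each group (horizontal axis, points) for core members of the pathway that did not pass in any comparison, with the group mean and standard deviation as black bars. B2m and H2-Ab1 are means of 11 and 12 features of 1 record. Psmb8 feature 38519 separates the strains, the exercised arrays lie just below SAMR1 for H2-Ab1, the groups overlap in the other panels, and exercised replicate 12 stands highest among the exercised arrays for B2m and Psmb8.

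Lists of genes around the pathway held few calls between strains, in a comparison where 2.61% of all features passed. Of 41 features from 19 genes of interferon signalling and of the class II enhanceosome, 0 passed, with differences between -0.38 and 0.23. The proteasome activators and constitutive catalytic subunits (5 features), class I-like molecules (10 features) and costimulatory genes (15 features) also had 0 each. Among endolysosomal genes, 1 of 16 features was lower, a dim feature of Marchf1, a ubiquitin ligase that removes class II from the surface (-0.63, adjusted p = 0.045), while its bright feature differed by -0.05 (adjusted p = 0.86). Receptors of MHC molecules had 2 of 36 features higher: Lag3, an inhibitory receptor for class II, by 0.70 (adjusted p = 0.015), and Pirb, a class I receptor of myeloid cells and neurons, by 0.65 (adjusted p = 0.0081).

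All 19 features that passed belong to genes of chromosome 17, as do 31 of the 41 member genes with values. In the GRCm38.p6 gene table, 29 member genes lie in the stretch from H2-K2 to H2-M2, which holds 285 genes, and 84 member features from it were measured. Of these, 22.6% passed in the strain comparison, against 2.61% of all features, with 9 of the 19 calls on repeats of 1 H2-K1 record. Of the 27 member features from outside the stretch, 0 passed, and 11 of those are repeats of 1 B2m record. So few features cannot tell 0 calls from the share of 2.61% over all features. They also include Cd74, Calr and Canx of other chromosomes, and Tapbp and H2-Q8, which the gene table places on chromosome 17 outside the stretch. H2-Q8 was set apart only by the rule on gaps of over 5000000 bases, so outside the stretch need not mean outside the complex. Other genes in the stretch passed in 16 of 159 features (10.1%), 8 higher and 8 lower, and the rest of chromosome 17 in 40 of 1044 (3.83%). The neighbours that passed were Ring1, Col11a2, C4b, Stk19, C2, Zbtb12, Ehmt2, 1110038B12Rik, Sapcd1, Gpank1, Atp6v1g2, Tcf19, Vars2 and Flot1. The features that passed ran from -1.21 for Col11a2, a fibrillar collagen chain, to 1.17 for Zbtb12, a zinc finger gene. C4b, complement component C4, fell by 1.08 on the log2 scale. For Ring1 and Vars2 another feature had the opposite sign, at -0.06 and -0.27, and did not pass. Col11a2, Stk19, Sapcd1 and Atp6v1g2 each had another feature of the same sign that did not pass, at -0.17 for Col11a2. Features of genes of other function passed in both directions within the same stretch.

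**Figure D5:**
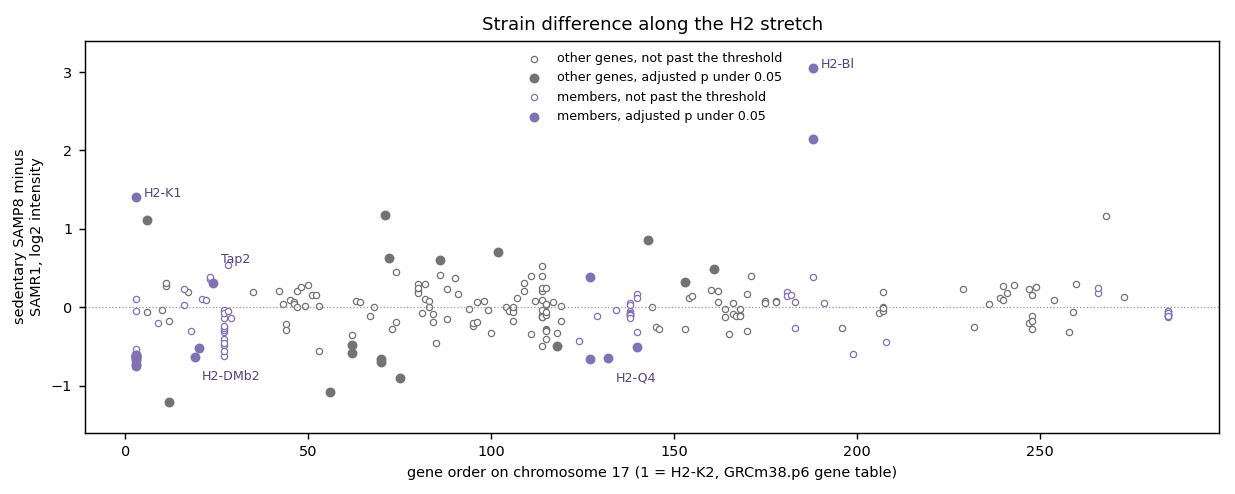
Strain difference in log2 intensity (vertical axis) of the 243 features of the H2 stretch of chromosome 17, by gene order (horizontal axis), with member features in purple and features of other genes in grey; filled points passed an adjusted p of 0.05. Points that passed lie on both sides of 0 and belong to members and to neighbours alike, and the 2 H2-Bl points stand highest.

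Exercise changed no member past the threshold. In exercised against sedentary SAMP8, 0 of 111 member features and 0 of 34479 features in all passed (0%), with a smallest adjusted p of 0.71 among members and 0.50 overall (limma). At an unadjusted p of 0.05, 4 members passed (3.6%), against 6.64% of all features. No member feature separated the exercised from the sedentary arrays without overlap, against 1.11% of all features. Member differences ran from -0.36 to 0.40. Of the 111, 80 were negative (72.1%, against 49% of all features), with a median of -0.05. Of those 80, 30 are repeats of 1 record each of B2m (11 of 11 negative), H2-Q7 (10 of 10) and H2-M2 (9 of 10), and 30 of the 47 member records had negative means. Medians were -0.08 for nonclassical class I, -0.01 for class II and -0.12 for loading genes. Among marker lists they were -0.41 for striatal, -0.19 for endothelial, -0.18 for oligodendrocyte, -0.13 for choroid plexus and -0.12 for astrocyte features. They were 0.02 for cortical neuron and 0.07 each for microglial, border macrophage and meningeal features. B cell, T cell and dendritic cell features had medians of 0.12, 0.13 and 0.17. Of all these marker features, 0 passed. The part of those cells in the member values was not tested.

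The members with the smallest p were 2 features of Calr, the chaperone calreticulin, then B2m feature 10649, H2-Q7 feature 11344 and H2-Ab1 feature 29662. Calr feature 9492 measured 13.05, 12.77, 12.64, 12.81 and 12.84 in sedentary and 12.71, 12.61, 12.74, 12.28 and 12.39 in exercised SAMP8. The groups overlapped, with sedentary replicate 6 highest and exercised replicates 14 and 15 lowest, and the difference was -0.28 ± 0.11 (adjusted p = 0.71, limma). Calr feature 9391 differed by -0.36 ± 0.15 (adjusted p = 0.72, limma), and their mean by -0.32 ± 0.12 (adjusted p = 0.74). B2m feature 10649 measured 11.08, 11.16, 10.98, 10.91 and 10.98 in sedentary and 10.53, 11.29, 10.77, 10.42 and 10.49 in exercised SAMP8. Exercised replicate 12 was above all sedentary arrays and the other 4 exercised arrays were below them, with a difference of -0.32 ± 0.14 (adjusted p = 0.74, limma), or -0.47 without replicate 12 (adjusted p = 0.27). H2-Q7 feature 11344 differed by -0.28 ± 0.13 and H2-Ab1 feature 29662 by -0.30 ± 0.15, with adjusted p of 0.74 and 0.76. The record means were -0.16 ± 0.13 for B2m and -0.17 ± 0.10 for H2-Q7 (adjusted p = 0.83 and 0.79).

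No feature that differed between strains passed under exercise. The sedentary SAMP8 arrays enter both comparisons with opposite sign, so the strain and exercise differences of a feature are not independent. The exercise difference of largest size among features that passed for strain was 0.24 ± 0.16 for H2-Q1 feature 5567, opposite in sign to its strain difference. The others were 0.00 ± 0.14 for the H2-K1 record mean, -0.10 ± 0.18 for H2-K1 feature 19521, -0.12 ± 0.13 for H2-Q4, 0.00 ± 0.08 for H2-DMb2, -0.06 ± 0.12 for H2-DMb1, -0.10 ± 0.22 and -0.03 ± 0.15 for H2-Bl features 18113 and 31637, -0.12 ± 0.09 for H2-Q1 feature 39981, -0.09 ± 0.11 for H2-Q10 feature 35376 and -0.01 ± 0.07 for Tap2. Exercised replicate 12 was the highest exercised array in 35 of 58 class I features (60.3%) and in 16 of 28 loading and immunoproteasome features (57.1%), against 19.5% of all features. Of the 58, H2-K1, H2-Q7 and H2-M2 gave 10 repeats of 1 record each, and 11 of the 28 were repeats of B2m. These shares therefore count a few records many times and are not independent observations. Among SAMR1 arrays, replicates 3 and 2 were the highest in 27 and 24 of the 58 class I features, with the same repeats counted. Those shares were 46.6% and 41.4%, against 18.1% and 20.4% of all features. Replicate 3 was also the highest in 13 of 22 class II features (59.1%), and 12 of those 22 are repeats of 1 H2-Ab1 record. Without exercised replicate 12, 0 members and 4 features in all passed in the exercise comparison.

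Exercised SAMP8 against sedentary SAMR1 shares its arrays with both other comparisons, so its values stand beside theirs and are no second test. There, 20 of 111 member features passed (18%), 4 higher and 16 lower, from 9 genes, against 3.28% of all features (1.89% higher and 1.39% lower). The groups did not overlap in 16 member features (14.4%), against 5.22% of all features. The count of calls was 13 without SAMR1 replicate 3, 12 without exercised replicate 11 or 15, 9 with only these groups fitted and 9 with records averaged. The H2-K1 record mean differed by -0.66 ± 0.14 (adjusted p = 0.019), H2-Q4 by -0.77 ± 0.13 (adjusted p = 0.0032) and H2-DMb2 by -0.63 ± 0.08 (adjusted p = 3.7e-04). H2-DMb1 differed by -0.58 ± 0.12, H2-Q10 feature 35376 by -0.60 ± 0.11, Tap2 by 0.30 ± 0.07, H2-Bl feature 18113 by 2.96 ± 0.22 and H2-K1 feature 19521 by 1.30 ± 0.18, all past the threshold. The Tap2 call was lost in 6 of 25 alternatives, with only these groups fitted and without SAMR1 replicate 1 or 4 or exercised replicate 13, 14 or 15 (adjusted p up to 0.068). The H2-Q1 features did not pass, at 0.26 ± 0.09 and -0.42 ± 0.16.

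H2-Ke6, like H2-D1, passed in this comparison only. It carries an H2- symbol for its place in the complex but encodes a hydroxysteroid dehydrogenase and has no part in antigen presentation. It measured 9.75, 9.87, 9.48, 9.74 and 9.70 in sedentary SAMR1, 9.53, 9.59, 9.39, 9.58 and 9.46 in sedentary SAMP8 and 9.39, 9.43, 9.35, 9.23 and 9.42 in exercised SAMP8. SAMR1 replicate 3 lay within the sedentary SAMP8 range, and all exercised arrays lay below all SAMR1 arrays. The difference from SAMR1 was -0.35 ± 0.08 in exercised SAMP8 (adjusted p = 0.028). That call was lost in 8 of 25 alternatives, with only these groups fitted and without SAMR1 replicate 1, 2, 4 or 5 or exercised replicate 11, 13 or 14 (adjusted p up to 0.082). The difference was -0.20 ± 0.08 in sedentary SAMP8 (adjusted p = 0.28), and the exercise difference of -0.15 ± 0.08 did not pass (adjusted p = 0.77).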

How the data were processed

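The authors deposited linear Cy3 spot intensity, with a column for each array and neither detection calls nor slide or scan records, so batches could not be tested. The submitters' processing notes name limma without its version or use, and the sources used here give no background correction, normalization step or build. The columns had nearly the same distribution and were treated as already normalized between arrays. The deposited intensity was taken as log2 with no pseudocount. Each of the 34479 features with values was fitted over all 15 arrays in 3 groups with limma 3.58.1 (lmFit and eBayes, R 4.3.3). Two-sided p-values were adjusted over all features by the Benjamini-Hochberg method, with a threshold of 0.05. Each array is a biological replicate per the labels, and p-values measure the spread between these arrays.

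Members are named by symbol, and all 41 with values matched the GRCm38.p6 RefSeq gene table by Entrez identifier, which gave names and gene order. The stretch was cut where H2- records lay more than 5000000 bases apart, which set aside 4 records (H2-Q8, H2-D4, H2-Q9 and H2-T18). Values of every array are given for genes with a feature past the threshold in any comparison and for H2-K1, H2-D1, H2-Aa, H2-Ab1, H2-Eb1, Cd74, B2m, Tap1, Tap2, Psmb8, Psmb9, Ciita and Nlrc5. Where no member passed, the 5 smallest p were given, and from other lists up to 3 features. The members, lists and tests were chosen with earlier results of these data known. Motifs were searched on both strands of the 250 bases before each start. The fit was tested on simulated data. Python 3.11.15 (matplotlib 3.10.9, pandas 2.3.3) drew the figures. Alternatives changed the normalization, the feature of a gene, the filter on dim features, an added offset, array weights, the variance prior, the groups fitted and the arrays kept.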

Additional observations from a re-analysis of the deposited data

Results flagged for a closer look

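Single arrays stood apart from the other 4 of their group in 9 of 201 groups examined (67 features, those of genes given array by array and those with the smallest p under exercise, in 3 groups each), by the gap to the nearest array relative to the group's range. Chance alone gives about 1 in 20 groups. Exercised replicate 12 was high in B2m feature 521, at 10.62 against 9.99 to 10.10 on the others, and in B2m feature 39488, at 10.59 against 10.01 to 10.15. It was low in H2-Ab1 feature 29115, at 5.29 against 5.99 to 6.28. SAMR1 replicate 3 was high in H2-DMb2, at 6.88 against 6.51 to 6.57. Sedentary SAMP8 replicate 9 was low in H2-Ab1 feature 19077, at 3.02 against 5.18 to 5.86, and in H2-Bl feature 32368, at 6.55 against 6.82 to 6.89. The dim B2m feature 44849 was low in SAMR1 replicate 2, at 4.96 against 5.75 to 5.95. H2-Ab1 feature 44952 was low in exercised replicate 14, at 4.88 against 5.86 to 6.13. Tap1 was low in sedentary SAMP8 replicate 10, at 5.83 against 6.13 to 6.17.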

How the results depend on the processing

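Quantile normalization, median centring, leaving out the dimmest 30% of features, an offset of 16, array weights and a trended, robust prior kept all 6 counts of calls (members and all features in 3 comparisons) within 1.5 times. With the brightest feature of each gene, the strain comparison called 6 members and 497 genes, and exercised SAMP8 against SAMR1 called 8 and 698. With the mean of a gene's features these were 5 and 476, and 8 and 618. Fewer features enter those fits. Averaging features of a transcript record, chosen after seeing the data, left 9 members in each, and fitting only the groups compared left 9 members in exercised SAMP8 against SAMR1. Leaving out 1 array gave 7 to 20 members and 663 to 919 features for strain, 0 to 0 and 0 to 4 for exercise, and 12 to 24 and 753 to 1357 for exercised SAMP8 against SAMR1. Averaged over its gene, H2-K1 feature 19521 turned from 1.41 to -0.40 for strain and from 1.30 to -0.41 for exercised SAMP8 against SAMR1. Likewise, H2-Q1 feature 39981 turned from 0.39 to -0.14 for strain, because other features of those genes had the opposite sign. Over all alternatives, features that passed kept direction and call 756 times, lost the call 188 times and turned 3 times. No paired analysis was possible because the replicate numbers, 1 to 15, are not shared between groups. Dim features, a lack of detection calls and 5 arrays a group limit the precision.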
